A study of Homo sapiens with 6 samples.

Results

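SMAD7, SKIL, SKI, SMURF1, SMURF2, PMEPA1, TGIF1, BAMBI and LDLRAD4 are negative regulators of TGF-b signalling or ubiquitin ligases that act on it. They were taken by name, and all 9 had at least 1 probe set annotated with that gene alone, out of 19775 genes measured in this way. The 9 were chosen with earlier results of these data known, so counts over them are not independent evidence. Expression was measured on 6 Affymetrix arrays in CaSki, a cell line grown from a cervical squamous carcinoma that holds integrated papillomavirus DNA. The treated group was 3 samples of cells given recombinant TGF-b1 at 2 ng/mL, and the control group was 3 samples of cells in the same medium without it. All 6 shared the line and the serum-containing RPMI medium. The sources used here give neither the duration of treatment nor whether the 3 samples of a group were separate cultures, so each p-value rests on sample-to-sample spread that may be technical. All samples come from 1 line. In RNA from whole cultures, fewer cells that express a gene and less of its RNA per cell cannot be told apart.

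TGF-b ligands bring type II and type I receptor kinases together, and the type I kinase phosphorylates SMAD2 and SMAD3, which enter the nucleus with SMAD4 and change transcription. Several products hold the pathway back, and some are themselves encoded by genes that the pathway switches on, which makes a negative feedback loop. BAMBI is a receptor-like protein without a kinase domain, PMEPA1 and LDLRAD4 are related membrane proteins that keep SMADs from the receptor, SMAD7 occupies the receptor and brings SMURF1 or SMURF2 to it for ubiquitination, and SKI, SKIL and TGIF1 are nuclear corepressors that bind SMADs.

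The promoters of the 3 genes with the largest differences are shown because these genes rose most. The sequences are RefSeq windows of build GRCh38.p14, 250 bases before to 50 after an annotated start, written 5′ to 3′ on the gene's strand. Capitals mark CAGAC or its reverse complement GTCTG, the core of the SMAD-binding element. Where a gene has several windows, the one with most of these matches is shown. The windows are chr20:57709966-57710265 (minus strand) for PMEPA1, chr18:48950916-48951215 (minus strand) for SMAD7 and chr3:170357465-170357764 (plus strand) for SKIL.
PMEPA1: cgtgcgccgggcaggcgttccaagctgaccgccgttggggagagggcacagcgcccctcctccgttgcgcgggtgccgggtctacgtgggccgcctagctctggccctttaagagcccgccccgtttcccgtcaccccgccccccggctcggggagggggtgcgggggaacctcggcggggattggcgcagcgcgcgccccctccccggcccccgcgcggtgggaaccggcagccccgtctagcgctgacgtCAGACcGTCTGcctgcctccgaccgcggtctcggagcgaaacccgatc
SMAD7: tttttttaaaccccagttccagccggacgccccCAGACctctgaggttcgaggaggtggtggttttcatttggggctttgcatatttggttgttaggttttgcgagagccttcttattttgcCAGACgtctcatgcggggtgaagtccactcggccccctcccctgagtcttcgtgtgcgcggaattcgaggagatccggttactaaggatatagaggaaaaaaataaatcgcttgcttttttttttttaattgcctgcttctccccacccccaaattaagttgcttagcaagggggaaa
SKIL: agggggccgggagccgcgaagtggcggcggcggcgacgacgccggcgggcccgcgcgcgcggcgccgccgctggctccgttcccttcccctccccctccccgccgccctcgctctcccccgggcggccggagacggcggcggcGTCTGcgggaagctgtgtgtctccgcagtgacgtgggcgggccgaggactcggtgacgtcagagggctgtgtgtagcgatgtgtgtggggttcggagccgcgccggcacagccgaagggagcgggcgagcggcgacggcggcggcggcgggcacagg

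CAGAC occurred 2 times in the PMEPA1 window, 2 times in the SMAD7 window and 1 time in the SKIL window, counting both strands. It is a common word. Of all 35116 RefSeq windows of this length 45.3% held it, as did 20 of the 27 windows of the 8 genes that had one. The PMEPA1 and SMAD7 windows were picked for their count, so these counts cannot be set against that share. Genes with several windows count several times among the 27. The matches include windows of TGIF1 and LDLRAD4, which were not among the genes that rose. The GC-rich word GGCGC, another sequence that SMAD proteins can bind, was found 4 times in the PMEPA1 window, 3 times in the SKIL window and 0 times in the SMAD7 window, against 48.6% of all windows with at least 1. The palindrome GTCTAGAC (0.202% of all windows) and the AP-1 word TGACTCA (4.95%) were in 0 of the 27 windows. TGACGTCA, the cyclic AMP response element, was in 1.85% of all windows and in 2 of the 27, those shown for PMEPA1 and SKIL, where it begins at -4 and -54 from the annotated start. In the PMEPA1 window its last 2 bases are also the first 2 of a CAGAC. A match is only a string of letters, and binding was not measured. SKI had no window in the table.

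With TGF-b1, 6 of the 9 genes rose and 0 fell (limma, Benjamini-Hochberg adjusted p below 0.05 over all 19775 genes), while 8.50% of all genes passed (4.03% rose and 4.47% fell). The rises were those of PMEPA1 (3.94-fold), SMAD7 (3.17-fold), SKIL (2.12-fold), BAMBI (1.54-fold), SMURF2 (1.38-fold) and SMURF1 (1.30-fold). SKI, TGIF1 and LDLRAD4 did not pass, and at an unadjusted p below 0.05 the count was 7 higher and 1 lower, SKI and TGIF1 being the additions, where 10.6% of all genes were higher and 12.6% lower. Treated and untreated values did not overlap for 7 of the 9 genes, 6 higher and TGIF1 lower, against 29.2% of all genes (12.9% higher and 16.3% lower). The median difference over the 9 genes was 0.47 on the log2 scale and over all genes 0.00, or -0.00271 unrounded. Differences are given as TGF-b1 minus untreated on the log2 scale, with limma's moderated standard error (SE), and levels are the deposited log2 values of a gene's brightest probe set.

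**Figure D1:**
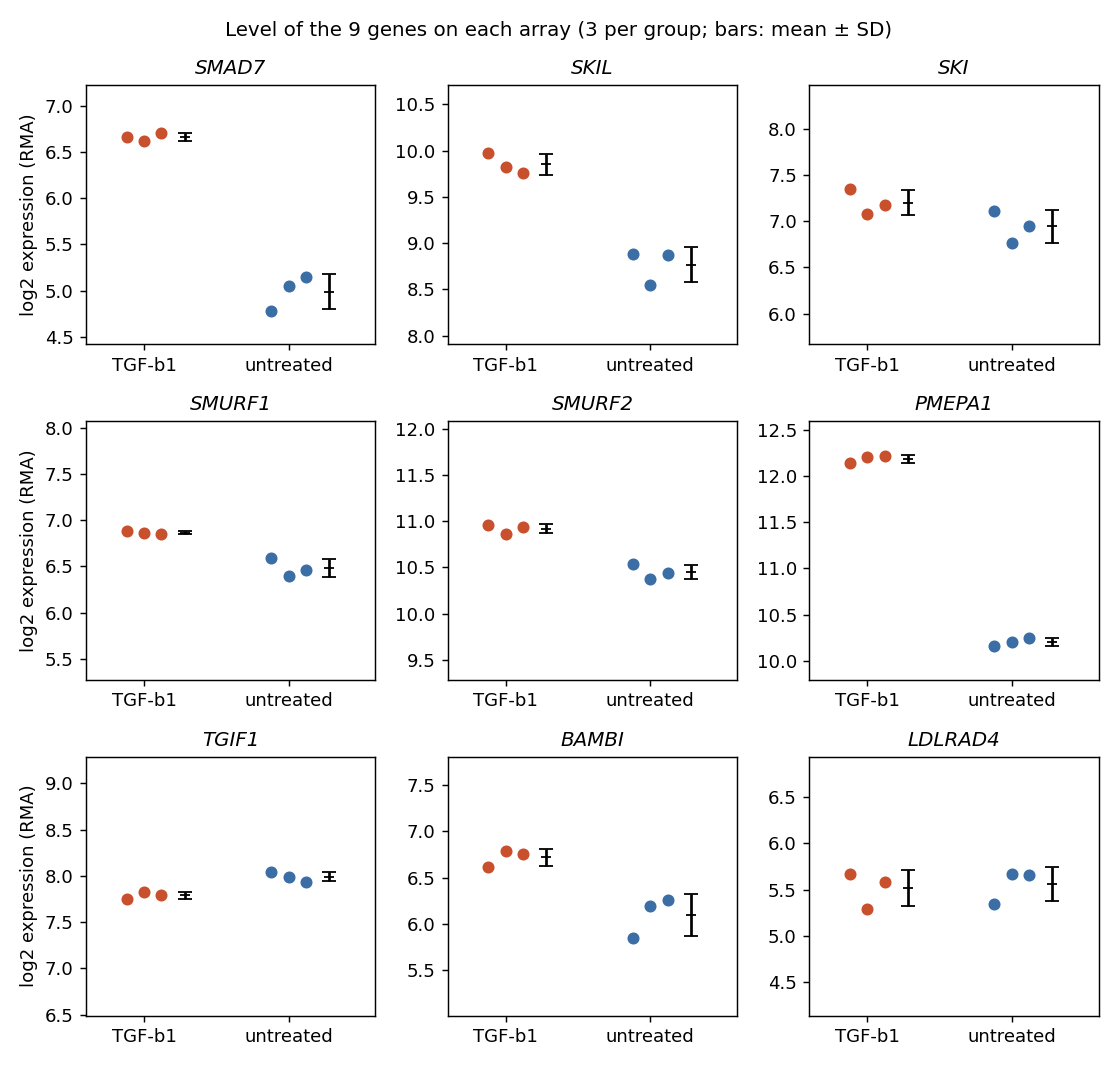
Log2 expression (vertical axis, the same number of units in every panel) of the 9 genes on the 3 TGF-b1 arrays (left, red) and the 3 untreated arrays (right, blue), with mean and SD beside the points. PMEPA1, SMAD7 and SKIL show wide gaps between the groups, BAMBI, SMURF2 and SMURF1 narrower ones, and the points of SKI and LDLRAD4 overlap.

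At the receptor, PMEPA1 stood at 12.14, 12.20 and 12.22 on the TGF-b1 arrays, against 10.16, 10.21 and 10.25 on the untreated arrays. The lowest treated value lay 1.89 above the highest untreated one. PMEPA1 averaged 12.18 ± 0.0419 in treated and 10.21 ± 0.0453 in untreated cells (SD, n = 3 each), a difference of 1.98 ± 0.07 (SE, limma adjusted p = 9.8e-06, 95% interval 1.82 to 2.14). This is rank 13 among the rises of all 19775 genes. Its pooled SD within groups was 0.0436, against a median of 0.116 over all genes. The other 2 PMEPA1 probe sets gave larger differences, 2.46 ± 0.09 and 2.28 ± 0.09 (SE, limma over all probe sets, adjusted p = 9.0e-06 and 1.3e-05). The size of the PMEPA1 rise therefore depended on the probe set, from 3.94-fold to 5.52-fold.

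LDLRAD4, whose product shares with PMEPA1 the property of keeping SMADs from the receptor, stood at 5.67, 5.30 and 5.58 on the TGF-b1 arrays and at 5.35, 5.67 and 5.66 on the untreated arrays. The groups overlap, and TGF-b1 replicate 2 and untreated replicate 1 were the low ones. The difference was -0.04 ± 0.13 (SE, limma adjusted p = 0.87), with a 95% interval from -0.33 to 0.25, which holds changes in either direction. Its other 3 probe sets, all below the median level of probe sets, differed by 0.08, -0.09 and -0.12 without passing. The PMEPA1 difference exceeded that of LDLRAD4 by 2.02, and the 3 treated arrays did not overlap the 3 untreated ones in this contrast (exact two-sided permutation test, p = 0.1, also 0.1 after adjustment over 3 such pairs, the smallest that 3 against 3 arrays can give). The PMEPA1 gap alone was wider than the full range of LDLRAD4, so this separation was fixed by values already given. The test was added after the values were seen.

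BAMBI, the receptor-like decoy, stood at 6.61, 6.79 and 6.76 on the TGF-b1 arrays, against 5.84, 6.19 and 6.26 on the untreated arrays. All treated values were above all untreated ones, by at least 0.35, with untreated replicate 1 the lowest. The difference was 0.62 ± 0.12 (SE, limma adjusted p = 0.0171, 95% interval 0.35 to 0.89). The call was lost without TGF-b1 replicate 2 (adjusted p = 0.0625) or TGF-b1 replicate 3 (adjusted p = 0.0586). BAMBI had a single probe set.

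SMAD7, the inhibitory SMAD, stood at 6.66, 6.61 and 6.70 on the TGF-b1 arrays, against 4.78, 5.05 and 5.14 on the untreated arrays. The gap between the groups was 1.47, wide beside the spread of 0.0444 (SD) in treated and 0.191 in untreated cells (n = 3 each). The difference was 1.67 ± 0.10 (SE, limma adjusted p = 7.9e-05, 95% interval 1.43 to 1.90), rank 25 among the rises of all genes. It rests on the 1 probe set of this gene.

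Both ligases that SMAD7 brings to the receptor rose, by less. SMURF2 stood at 10.96, 10.86 and 10.93 on the TGF-b1 arrays, against 10.54, 10.38 and 10.44 on the untreated arrays, without overlap. Its difference was 0.47 ± 0.07 (SE, limma adjusted p = 0.00835, 95% interval 0.30 to 0.64). The other 3 SMURF2 probe sets differed by 0.40, 0.55 and 0.31, of which the first 2 passed in the fit of all probe sets (adjusted p = 0.0321 and 0.0398) and the last did not (adjusted p = 0.231).

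SMURF1 stood at 6.88, 6.86 and 6.85 on the TGF-b1 arrays, against 6.59, 6.40 and 6.46 on the untreated arrays, without overlap. The difference was 0.38 ± 0.08 (SE, limma adjusted p = 0.0214, 95% interval 0.20 to 0.55). This is the least firm of the 6 rises. It was lost without any 1 of the 3 TGF-b1 arrays or without untreated replicate 2 or 3 (adjusted p from 0.0509 to 0.0847), and the mean of the 5 SMURF1 probe sets differed by 0.19 (adjusted p = 0.128). Of the other 4 SMURF1 probe sets, 2 differed by 0.34 and 0.32 and 2 by -0.07 and -0.01, and none passed. The difference of SMURF2 exceeded that of SMURF1 by 0.09, and although the arrays did not overlap in this contrast, the exact permutation test could give no less than p = 0.1.

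Among the nuclear corepressors, SKIL, which encodes SnoN, stood at 9.98, 9.82 and 9.76 on the TGF-b1 arrays, against 8.88, 8.55 and 8.87 on the untreated arrays. The groups were 0.88 apart at their nearest. The difference was 1.08 ± 0.11 (SE, limma adjusted p = 9.4e-04, 95% interval 0.83 to 1.33), rank 73 among the rises. Of the other 4 SKIL probe sets, the 2 above the median level rose 2.00-fold and 1.83-fold (limma over all probe sets, adjusted p = 5.4e-04 and 0.00909) and the 2 below it differed by 0.10 and 0.18 without passing. Averaging all 5 gave a difference of 0.65.

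SKI, the close relative of SKIL, stood at 7.35, 7.08 and 7.17 on the TGF-b1 arrays and at 7.11, 6.76 and 6.95 on the untreated arrays. The groups overlap, because TGF-b1 replicate 2 lay below untreated replicate 1. Each TGF-b1 array nevertheless lay above the untreated array of the same number. The difference was 0.26 ± 0.11 (SE, limma adjusted p = 0.21, 95% interval 0.00347 to 0.51). It was 0.10 for the mean of its 3 probe sets and 0.17 without untreated replicate 2, and did not pass in any of the 17 alternatives. The other 2 SKI probe sets differed by -0.03 and 0.07 without passing, and the first of them spread widely, from 5.25 to 6.54 over the TGF-b1 arrays. The SKIL difference exceeded that of SKI by 0.83, with no overlap between the groups of arrays (exact permutation test, p = 0.1, the smallest possible). The SKIL gap was wider than the full range of SKI, so this separation too was fixed by those values.

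TGIF1, a homeodomain corepressor, stood at 7.74, 7.83 and 7.79 on the TGF-b1 arrays, against 8.04, 7.99 and 7.94 on the untreated arrays. All treated values were below all untreated ones, by at least 0.11. The difference of -0.20 ± 0.07 (SE, 95% interval -0.36 to -0.04) did not pass (limma adjusted p = 0.124, unadjusted p = 0.0189). It passed in 1 of 17 alternative settings, the fit of genes above the median level (adjusted p = 0.0350). The other 2 TGIF1 probe sets differed by -0.21 and -0.12 without passing.

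The order of the differences was PMEPA1, SMAD7, SKIL, BAMBI, SMURF2, SMURF1, SKI, LDLRAD4 and TGIF1. Of the neighbours in this order, SMAD7 and SKIL had 95% intervals that did not overlap, while PMEPA1 and SMAD7, SKIL and BAMBI, and each following pair overlapped. Over all 29 probe sets of the 9 genes, 11 rose and 0 fell in the fit of all 54613 probe sets that are not controls, where 3.24% passed, 1.69% as rises and 1.55% as falls. At an unadjusted p below 0.05 there was 1 lower, the brightest of TGIF1, where 8.84% of all probe sets were lower. Of the 29, 20 lay above the median level of all probe sets and 9 below it, and the 11 rises were among the 20.

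**Figure D2:**
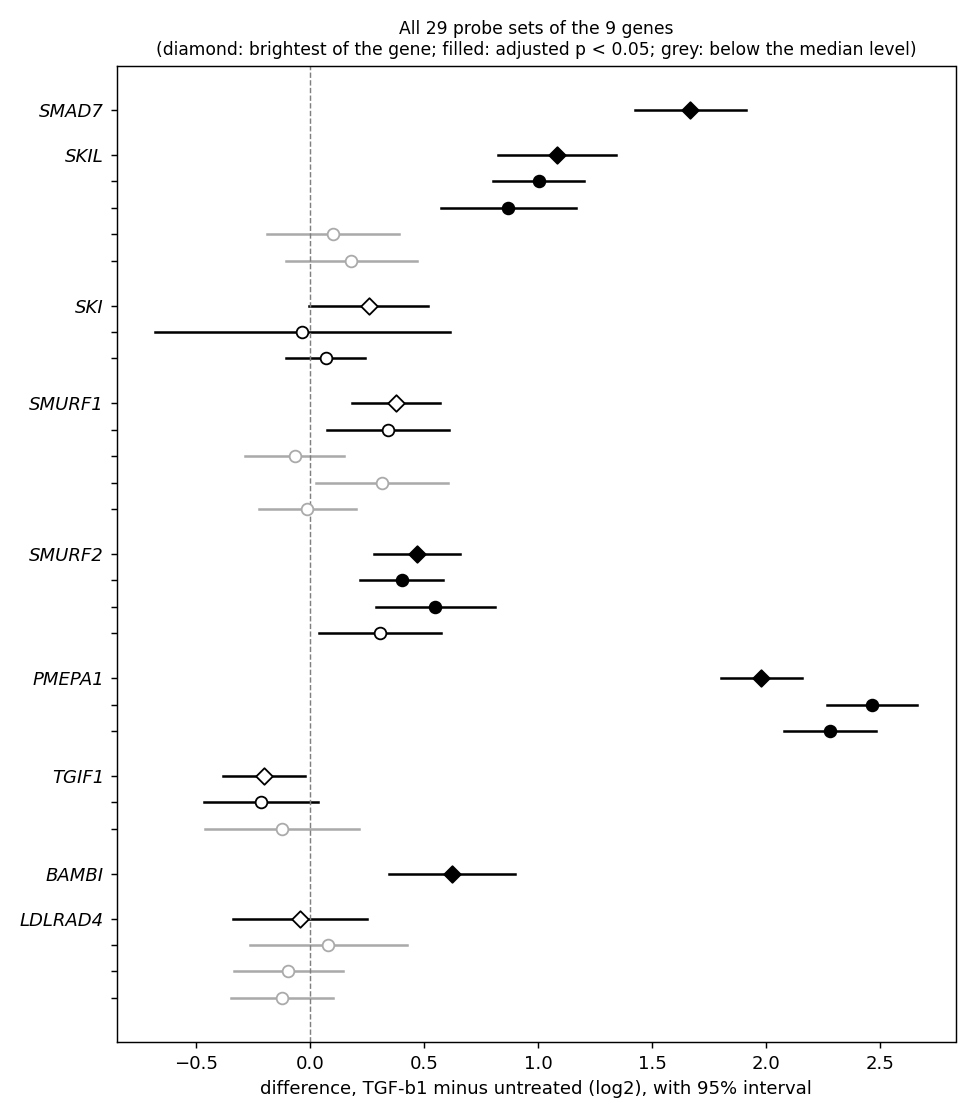
Difference (TGF-b1 minus untreated, log2) of each of the 29 probe sets with its 95% interval, grouped by gene, from the fit of all probe sets. Diamonds are the brightest probe set of a gene, filled symbols passed at an adjusted p below 0.05 in that fit, and grey symbols lie below the median level; the 3 PMEPA1 probe sets lie furthest right, and the SMURF1 diamond is open because its adjusted p was 0.0506 there, against 0.0214 over genes.

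The genes nearest to each risen member were found by the root mean square difference between profiles over the 6 arrays, each centred on its own mean, among 9886 other genes above the median level. Because the members were chosen for having risen, a near profile must rise by a similar amount, so the direction of these genes is fixed by the choice. Nearest to PMEPA1 were SERPINE2 (0.0690 log2), ABCA1 (0.0778) and TP53I3 (0.0968). Nearest to SMAD7 were IER3 (0.0594 log2), CDH16 (0.0773) and SGK1 (0.0828). SKIL had COL7A1 (0.0324 log2), RFLNB (0.0809) and SEMA3C (0.0933) beside it. BAMBI had ACTA2 (0.0639 log2), OPN3 (0.0686) and TBC1D2B (0.0718). For SMURF2 they were KIAA1549L (0.0289 log2), BHLHE40 (0.0325) and LARP6 (0.0326), and for SMURF1 PTGFRN (0.0183 log2), MRTFA (0.0330) and ARHGDIA (0.0356).

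Of 35 other measured regulators of the pathway 2 rose and 2 fell, a share near the 8.50% of all genes that passed, with a median difference of 0.01. The list holds inhibitors, ligases, deubiquitinases, phosphatases and coreceptors, and not all of them hold the pathway back. FKBP1A, which encodes a protein that binds the type I receptor and holds it inactive, stood at 9.76, 9.88 and 9.86 on the TGF-b1 arrays, against 9.11, 9.12 and 9.21 on the untreated arrays, and rose 1.61-fold (limma adjusted p = 0.00119). UCHL5, a deubiquitinase that SMAD7 can carry to the receptor, was 1.38-fold lower (adjusted p = 0.00992). NEDD4L, a ligase for activated SMADs, was 1.29-fold lower, and USP11, a deubiquitinase of the receptor, rose 1.24-fold. The NEDD4L and USP11 calls were each lost when any single array was left out (adjusted p up to 0.0992 and 0.133), and the UCHL5 call was lost without both arrays numbered 1, with the mean of its probe sets and without suffixed probe sets. SMAD6, the other inhibitory SMAD, differed by -0.06 (95% interval -0.32 to 0.20), at a level below the median of all genes. RNF111, the ligase that degrades SMAD7, SKI and SKIL proteins, differed by 0.01 (95% interval -0.14 to 0.17), and TGIF2, a relative of TGIF1, by -0.10 (95% interval -0.32 to 0.12).

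Of 18 measured receptors, signal-carrying SMADs and adaptors that bind SMADs (ZFYVE9 and HGS), 1 rose and 1 fell, with a median of -0.02. This share is near the 8.50% of all genes that passed. The rise was that of BMPR2, a type II receptor for bone morphogenetic proteins, by 0.93 ± 0.07 on the log2 scale (SE, limma adjusted p = 1.8e-04). SMAD3 fell by 0.71 (SE 0.08, limma adjusted p = 0.00129). The receptor genes TGFBR1 and TGFBR2 differed by 0.02 and -0.02, and SMAD2 and SMAD4 by -0.07 and -0.09, none of them passing. Among 13 measured partners of SKI and SKIL in corepressor complexes, 0 passed by limma in either direction, against 8.50% of all genes. At an unadjusted p below 0.05 there were 0 higher and 1 lower, against 10.6% and 12.6% of all genes. With 13 genes these counts are near those shares. The lower gene was PRMT5, an arginine methyltransferase, at -0.29 (limma adjusted p = 0.0667), and the next by p was MBD3, a subunit of a histone deacetylase complex, at 0.21. The median of these partners was -0.01.

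Of 20 measured targets of SMAD3 and SMAD4, 16 rose and 0 fell, against 4.03% and 4.47% of all genes. At an unadjusted p below 0.05 also 0 were lower, against 12.6% of all genes, and the median was 0.93. The 4 with the smallest p were COL4A1, a basement membrane collagen chain, at 2.29, the small GTPase gene RHOB at 2.63, LTBP2, of the latent TGF-b binding protein family, at 2.15, and ADAM19, a membrane protease, at 1.62. The differences of PMEPA1 and SMAD7 lie within the range of these 4, and that of SKIL lies below it. These 4 were picked by their p, and the SKIL difference of 1.08 lies above the median of the whole list. These genes were listed with earlier results of these arrays known, so the count is not independent evidence.

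**Figure D3:**
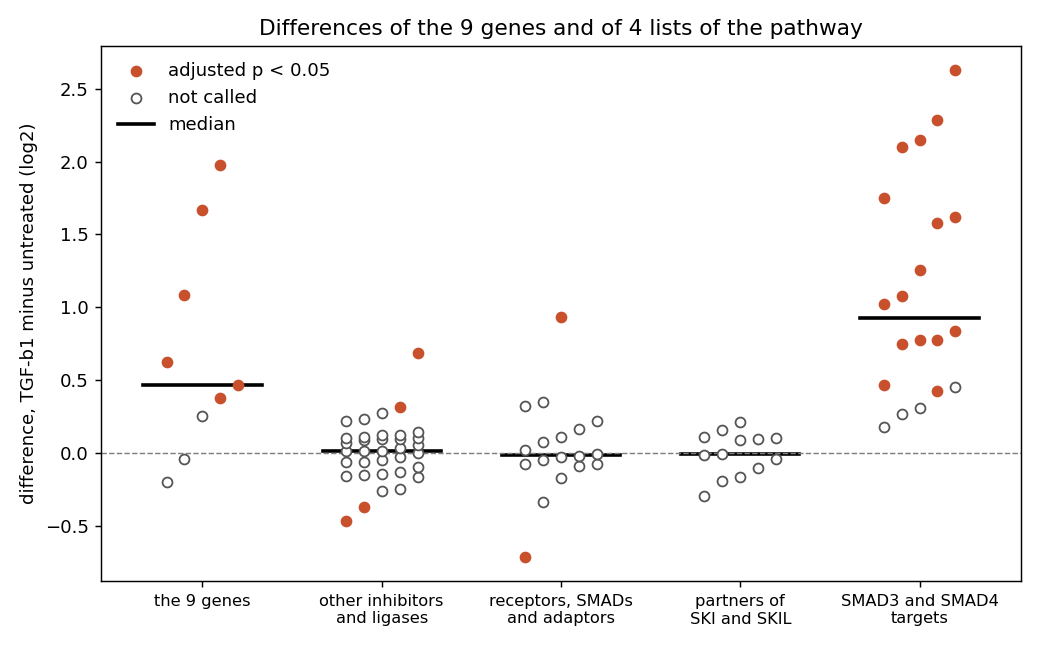
Difference (TGF-b1 minus untreated, log2) of each gene, for the 9 genes and 4 lists of the pathway, 1 point a gene. The list labelled other inhibitors and ligases also holds deubiquitinases, phosphatases and coreceptors. Filled points passed at an adjusted p below 0.05 and bars are medians, which stand at 0.47 for the 9 genes, 0.01, -0.02 and -0.01 for the next 3 lists and 0.93 for SMAD3 and SMAD4 targets.

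The arrays of 1 group correlated with r from 0.994 to 0.996 and those of different groups with r from 0.992 to 0.993 over all probe sets. The control probe sets of ACTB and GAPDH give a 3′ to 5′ ratio, a sign of RNA quality, which was highest on replicate 1 of each group, at 1.15 for TGF-b1 and 1.19 for untreated, against 0.690 to 0.863 on the other 4 (log2). The groups overlapped in it (0.859 ± 0.256 in treated and 0.939 ± 0.218 in untreated cells, SD, n = 3 each, exact two-sided permutation test p = 0.5, smallest possible 0.1). Without both of these arrays the differences were 1.98 for PMEPA1, 1.56 for SMAD7, 1.08 for SKIL, 0.55 for BAMBI, 0.49 for SMURF2 and 0.42 for SMURF1, of which that of SMURF1 did not pass (limma adjusted p = 0.0598). With this ratio as a covariate all 6 passed. Of 10 measured markers of squamous epithelium 9 lay above the median of all genes, led by SFN, KRT19 and KRT18, which were not called. Of the 10, 2 rose, KRT14 1.71-fold and KRT8 1.51-fold, and 1 fell, EPCAM, 1.62-fold (limma adjusted p = 0.0027, 0.0034 and 9.5e-04). Over all genes 4.03% rose and 4.47% fell, which also holds beside the marker counts that follow. The mean level of the 10 epithelial markers ran from 10.35 to 10.55 on treated and from 10.28 to 10.40 on untreated arrays. The 10 fibroblast markers averaged 4.07 to 4.17 on treated and 3.88 to 4.01 on untreated arrays, with 1 above the median, the protease gene FAP, which was also the only one called, at 1.85-fold higher. The 7 endothelial markers averaged 4.14 to 4.27 on treated and 4.16 to 4.18 on untreated arrays, with 1 above the median. KDR was called 1.23-fold higher (2.97 against 2.67) and CDH5 1.33-fold lower (2.91 against 3.31), both far below the median of all genes. The 6 immune markers averaged 4.05 to 4.21 on treated and 4.03 to 4.05 on untreated arrays, with 0 called by limma. At an unadjusted p below 0.05, 2 of them were higher, CSF1R and CD163, and 0 lower, against 10.6% and 12.6% of all genes. The part of these markers in the differences above was not tested.

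**Figure D4:**
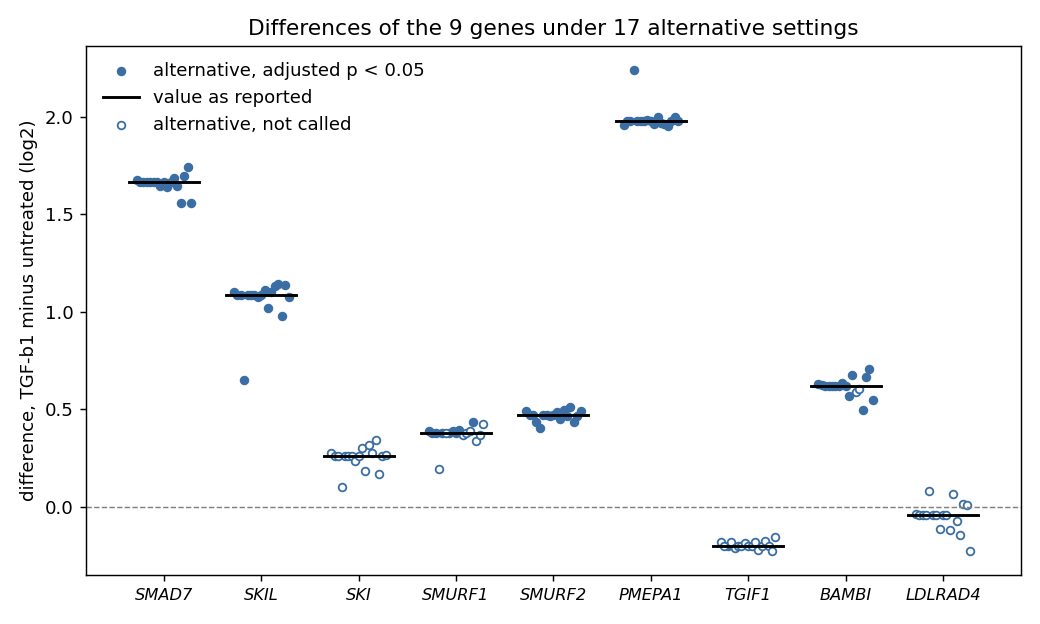
Difference (TGF-b1 minus untreated, log2) of each gene as reported (black line) and under 17 alternative settings (points, filled where the adjusted p was below 0.05). PMEPA1, SMAD7, SKIL and SMURF2 passed in all 17, BAMBI in 15 and SMURF1 in 9, and the single low SKIL point at 0.65 is the mean of its 5 probe sets.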

How the data were processed

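Expression was measured on 6 arrays, 3 with TGF-b1 and 3 untreated. The deposited values are log2 expression per probe set, made with Affymetrix Expression Console and RMA, per the submitters' processing notes. The sources used here give no versions. The log2 scale was read from the values, whose array medians ran from 4.15 to 4.18. RMA corrects background, quantile-normalizes and summarises probes, and compresses differences of dim probe sets. No scanner files were used, so detection is unknown. Arrays have no read depth, and 3 arrays a group limit the precision.

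Of 54675 probe sets, 41091 carried 1 symbol in the platform annotation, updated through RefSeq (GRCh38.p14 names, 0 changed), and covered 19775 genes. The probe set brightest on average stood for a gene. Treated and untreated arrays were fitted with limma 3.58.1 (lmFit, eBayes, R 4.3.3, without covariates or filters) and Benjamini-Hochberg adjustment over all genes, and further probe sets in a fit over 54613 probe sets. Related pairs were compared by an exact permutation test over arrays, added after the values were seen. Alternatives were repeated quantile normalization, median centring, a filter on dim genes, 3 other uses of probe sets, a trended robust variance, array weights, a replicate block, a 3′ over 5′ covariate and the removal of arrays. On data simulated from the 19775 genes of this comparison the fit recovered 56% of genes changed 1.5-fold and 88% changed 2-fold, and 5.26% of its calls were false. The simulation changed only a small share of the genes and gave every array independent normal noise. Its shares are therefore not error rates of the calls reported here.

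The members and lists were chosen with earlier results of these data known. Named genes are the 9 members, up to 4 called genes of each list with the smallest p (or 2 where fewer than 2 passed) and a few fixed pathway genes. Also named are the 3 profiles nearest to each risen member, the brightest 3 epithelial markers, DSG3, and called markers of any type. Of the 133 genes in the lists, 14 were not analysed here.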

Additional observations from a re-analysis of the deposited data

How the results depend on the processing

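Of 153 differences of the 9 genes under 17 alternatives, 138 kept their direction and side of the threshold, 10 were no longer called, 1 was newly called and 4 changed sign. The 10 were 8 of SMURF1 and 2 of BAMBI. SMURF1 gave 0.19 for the mean of its probe sets (adjusted p = 0.128), 0.38 when probe sets were tested singly (adjusted p = 0.0506), 0.42 without both arrays numbered 1 (adjusted p = 0.0598) and 0.33 to 0.43 without single arrays. BAMBI gave 0.49 to 0.70 and SKI, called in none, 0.17 to 0.34 without single arrays. TGIF1, at -0.20, passed among genes above the median level (adjusted p = 0.0350), which made 1 member lower. LDLRAD4, which passed nowhere, changed sign to 0.0805 when probe sets with a shared-sequence suffix were left out, and to 0.0668, 0.0126 and 0.00579 without TGF-b1 replicate 2, untreated replicate 2 or untreated replicate 3 (range without single arrays -0.15 to 0.0668). The members called higher numbered 4 to 6 without single arrays, and 5 or 6 in the other settings.

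Over all genes, 796 rose and 884 fell. Without single arrays 404 to 692 rose and 318 to 634 fell, and without both arrays numbered 1, 356 and 271. There were 482 and 522 without suffixed probe sets (16788 genes tested) and 497 and 469 when probe sets were tested singly. Falls numbered 1482 among genes above the median level, where 9887 were tested, and 1527 with a trended robust variance. Rises were 47.4% of all calls, 41.9% with the trended variance, 41.95% with the filter on dim genes and 58.7% without untreated replicate 3. Among the other regulators of the pathway, 3 rose and 3 fell with the filter on dim genes and with the trended variance. In that list 1 rose without suffixed probe sets, with probe sets tested singly, with the replicate block and without both arrays numbered 1, and 1 to 2 without single arrays; 0 fell with the mean of probe sets and without both arrays numbered 1, and 1 fell without suffixed probe sets, with single probe sets and without any single array. Among receptors and SMADs 2 rose with repeated quantile normalization, with the filter on dim genes and with the trended variance, 2 fell with that filter, that variance and array weights, and without single arrays 1 to 2 rose and 1 to 2 fell. Among partners of SKI and SKIL 1 fell with the filter on dim genes, the mean of probe sets and the trended variance. The cause was not tested. Of the targets of SMAD3 and SMAD4, 11 rose without suffixed probe sets, 18 with the trended variance and with array weights, and 14 to 17 without single arrays.

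The labels number the arrays of both groups but do not say whether a shared number marks a pair, and the main fit took no pairs. Between same-number arrays the deviations were positively correlated over all probe sets, with r of 0.181, 0.0392 and 0.0794. No such value was obtained for arrays with different numbers, so these correlations cannot decide whether the arrays were paired. The SE of SKI fell from 0.110 to 0.0664 with the replicate block (limma adjusted p = 0.0856), and that of BAMBI from 0.117 to 0.0797. Those of TGIF1 and LDLRAD4 rose. With the replicate block 625 genes rose and 655 fell, 6 of the 9 members rose, and 5 of their other probe sets rose, against 6 without the block. Detection was not available, and 9 of the 29 probe sets lay below the median level, where no test of signal over background could be made.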
